A study of Mus musculus with 12 samples.

Results

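The genes described here are those of the antiviral arm of the macrophage response to bacterial lipopolysaccharide (LPS). They are Ifnb1, which encodes interferon-β, Ifnar1 and Ifnar2, which encode the paired subunits of the receptor for all type I interferons, and Cxcl9, Cxcl10 and Cxcl11, the chemokines that bind the receptor CXCR3. They were chosen by name, 6 genes in all, and 5 of them were among the 16920 genes of the count tables. Cxcl11 is annotated as a transcribed pseudogene in the mouse assembly used here (GRCm38.p6, chromosome 5, 92359544 to 92363296) and was not analysed here. To investigate how the m6A reader YTHDF1 bears on macrophage inflammation, RNA of mouse peritoneal macrophages had been sequenced in 4 groups of 3 libraries. Wild-type (WT) or Ythdf1-/- (KO) mice, which the study's methods place on a C57BL/6 background at 6 to 10 weeks of age, were the source of the cells, which an injected irritant had drawn into the peritoneum and which were cultured overnight and given PBS or LPS (1 µg/mL) for 6 h. The study made its Ythdf1-deficient mice with CRISPR/Cas9, the labels do not say whether animals were pooled, and the methods describe the samples of a group as independent biological replicates.

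The targeted gene was examined first. Under PBS, Ythdf1 had a normalised read count (CPM, here and below mean ± SD of 3 libraries) of 43.5 ± 1.54 in WT and 57.2 ± 1.53 in KO libraries. With LPS it stood at 201.5 ± 9.37 CPM in WT and 197.7 ± 6.94 CPM in KO libraries. The log2 difference was 0.40 under PBS (edgeR adjusted p = 0.000133) and -0.03 under LPS (adjusted p = 0.724). The mRNA was thus not reduced beyond the test in either group labelled KO, and counts per gene do not show which exons the reads came from, so the groups are called KO-labelled throughout and each genotype comparison rests on the labels.

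Macrophages sense LPS through TLR4. The signal runs through the adaptor TRIF to the kinases TBK1 and IKKε and the factor IRF3, which together with NF-κB switch on Ifnb1. Secreted interferon-β binds IFNAR1 and IFNAR2, the kinases JAK1 and TYK2 then activate STAT2, which works with IRF9 to induce antiviral genes. CXCL10 can be induced directly by IRF3 and NF-κB as well as by either type of interferon, whereas CXCL9 is known above all as a target of interferon-γ. Both chemokines draw activated T cells and natural killer cells that carry CXCR3.

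The stretches directly before the starts of Ifnb1, Cxcl9 and Cxcl10 are shown because these genes encode the secreted proteins and went from few or no reads to their LPS level. Each is the 250 bases before the gene's start in RefSeq on GRCm38.p6, minus strand, at chr4:88522795-88523044 for Ifnb1, chr5:92328080-92328329 for Cxcl9 and chr5:92348890-92349139 for Cxcl10. Capitals mark matches on either strand to an IRF core (AANNGAAA), a STAT site (TTCNNNGAA), the NF-κB consensus or TATAAA.
Ifnb1: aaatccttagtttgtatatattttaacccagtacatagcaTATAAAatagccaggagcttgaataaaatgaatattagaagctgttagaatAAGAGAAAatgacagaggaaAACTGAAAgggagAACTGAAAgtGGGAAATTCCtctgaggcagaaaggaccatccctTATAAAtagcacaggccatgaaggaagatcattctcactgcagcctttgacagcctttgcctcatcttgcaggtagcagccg
Cxcl9: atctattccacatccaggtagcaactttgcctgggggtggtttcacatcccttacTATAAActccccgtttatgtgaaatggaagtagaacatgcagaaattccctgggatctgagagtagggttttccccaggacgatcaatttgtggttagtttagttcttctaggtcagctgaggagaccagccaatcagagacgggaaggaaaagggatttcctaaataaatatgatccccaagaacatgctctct
Cxcl10: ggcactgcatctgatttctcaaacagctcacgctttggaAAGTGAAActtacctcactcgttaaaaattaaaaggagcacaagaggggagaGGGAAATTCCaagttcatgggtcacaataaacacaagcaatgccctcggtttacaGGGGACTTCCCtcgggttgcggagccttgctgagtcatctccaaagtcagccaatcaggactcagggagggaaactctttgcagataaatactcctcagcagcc

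In the Ifnb1 stretch, 3 IRF cores lay between 159 and 119 bases before the start. They were followed by 1 NF-κB match at 116 to 107 bases and by TATAAA at 82 to 77 bases, with a further TATAAA at 210 to 205 bases. Cxcl10 had 1 IRF core at 211 to 204 bases and 3 NF-κB matches, of which those at 104 to 95 and 103 to 94 bases overlap each other. The Cxcl9 stretch held only TATAAA of these letters, at 195 to 190 bases. Of the receptor genes, Ifnar2 had 1 STAT site at 214 to 206 bases. Ifnar1 had none of these motifs in its window, chr16:91484965-91485214. That window reaches past the gene start of 91485032 used below, so most of the stretch before that start was not read. Among 32851 stretches of the same length in the RefSeq table, 21.3% held an IRF core, 7.25% an NF-κB match, 7.02% a STAT site and 12.4% TATAAA. At least 2 IRF cores stood in 4.2% of them and at least 2 NF-κB matches in 1.03%. The motifs were picked after these sequences had been seen, and a match or its lack is a description of letters in this window only.

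Total counts per library ranged from 21546274 to 22017005, and the typical biological coefficient of variation across genes was 6.99%. WT LPS replicate 1 stood apart from its group, with a mean chi-square per gene of 30.7 and 23.9 against replicates 2 and 3, which differed from each other by 2.97. KO-labelled PBS replicate 3 stood apart in the genes of this pathway, since it was the highest of its group for Cxcl10, Irf7 and the summed type I interferon targets. Its skeletal muscle markers summed to 0.319 CPM against 16.1 and 20.3 CPM in the other replicates, and the KO-labelled LPS libraries resembled it at 0.429 to 0.684 CPM. Values without these libraries are given beside the results on the genes named here that they moved most. The macrophage markers, all 8 detected, summed to 17170 to 19940 CPM over the 12 libraries. In bulk RNA, fewer cells of a type and less RNA per cell cannot be told apart.

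To determine how LPS changed these genes, each LPS group was compared with its PBS group. Both receptor subunits and both chemokines rose in the WT cells and in the KO-labelled cells, and Ifnb1 had reads only with LPS. Of the 12064 genes tested, 76.7% changed in WT cells (36.5% higher, 40.2% lower) and 79.9% in KO-labelled cells (38.8% higher, 41.1% lower), so a rise alone does not set these genes apart. The split depended on the scaling, at 18.4% higher and 68.4% lower in WT and 18.3% and 69.5% in KO-labelled cells with library totals alone, and at 26.1% and 54.0% in WT and 27.7% and 54.4% in KO-labelled cells with upper-quartile scaling. The median log2 fold change of all genes was -0.048 in WT and -0.041 in KO-labelled cells. Leaving aside Ifnb1, which has only a lower bound, log2 fold changes ran from 0.91 for Ifnar1 to 12.01 for Cxcl10 in WT cells. With library totals alone, the WT and KO-labelled responses were 0.24 and 0.42 for Ifnar1, 0.76 and 0.94 for Ifnar2, 6.78 and 5.50 for Cxcl9 and 11.35 and 11.25 for Cxcl10, all past the threshold, so their size depends on the scaling.

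Ifnb1 (gene 15977, chromosome 4, 88522025 to 88522794) had 0 counts in all 6 PBS libraries. Under LPS it had 8, 13 and 16 counts in the WT replicates (0.463, 0.740 and 0.903 CPM) and 15, 14 and 15 counts in the KO-labelled replicates (0.921, 0.857 and 0.933 CPM). Every LPS library therefore lay above every PBS library, although none held more than 16 reads of the gene. Against a floor of 3 counts per PBS library, Ifnb1 was at least 6.47-fold higher with LPS in WT cells and at least 8.50-fold higher in KO-labelled cells. On the log2 scale these bounds were 2.69 and 3.09. Over the alternatives they ran from 2.05 to 2.92 in WT and from 2.29 to 3.13 in KO-labelled cells, so they hold for the main scaling only. It passed the filter on low counts only through its LPS libraries, so its rise is given as a description. The interferon ligand was thus the rarest of the 5 mRNAs at 6 h, ranking between 10377 and 11333 by count in LPS libraries.

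Both receptor genes were abundant before LPS and rose moderately. Ifnar1 (gene 15975, chromosome 16, 91485032 to 91510523), the subunit that binds TYK2, stood at 163, 157 and 159 CPM in WT PBS and at 314, 293 and 292 CPM in WT LPS libraries. In KO-labelled cells it went from 174, 173 and 171 CPM to 413, 385 and 407 CPM. The PBS and LPS libraries were far apart in each, with log2 fold changes of 0.91 ± 0.0526 (SE, edgeR adjusted p = 6.73e-11) in WT and 1.22 ± 0.0527 (adjusted p = 1.04e-12) in KO-labelled cells. Ifnar2 (gene 15976, chromosome 16, 91372783 to 91405589), the subunit that binds JAK1 and STAT2, stood at 119, 120 and 113 CPM in WT PBS and at 296, 323 and 323 CPM in WT LPS libraries. Its KO-labelled values were 122, 130 and 122 CPM under PBS and 416, 424 and 411 CPM under LPS. The rise of Ifnar2 was larger in value than that of Ifnar1, at 1.42 ± 0.0565 in WT (edgeR adjusted p = 3.6e-13) and 1.74 ± 0.0568 in KO-labelled cells (adjusted p = 2.16e-14).

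Both chemokines changed more than the receptor genes. Cxcl10 (gene 15945, chromosome 5, 92346638 to 92348889) stood at 1.23, 1.61 and 1.68 CPM in WT PBS libraries and at 5420, 6865 and 6390 CPM in WT LPS libraries. In KO-labelled cells it stood at 1.09, 1.19 and 3.47 CPM under PBS and at 7972, 8977 and 7489 CPM under LPS. It thus moved from a rank of 9197 to 10432 among all genes by count under PBS to a rank of 12 to 19 under LPS, where it held 0.426% to 0.679% of all counts. The log2 fold change was 12.01 ± 0.33 in WT cells (4115-fold, edgeR adjusted p = 3.52e-11) and 12.05 ± 0.326 in KO-labelled cells (4247-fold, adjusted p = 2.59e-11), and 12.79 in the latter without KO PBS replicate 3.

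Cxcl9 (gene 17329, chromosome 5, 92321331 to 92328079) was at 0.796, 0.644 and 0.465 CPM in WT PBS and 0.875, 0.597 and 0.638 CPM in KO-labelled PBS libraries, between 12.99 and 24.7 deposited counts each. With LPS it reached 78.9, 133 and 120 CPM in WT but 55.4, 58.7 and 53.7 CPM in KO-labelled cells. All LPS libraries lay above all PBS libraries, and the lowest WT LPS value, in replicate 1, lay above the highest KO-labelled one. The log2 fold change was 7.44 ± 0.247 in WT (173-fold, edgeR adjusted p = 8.59e-12, and 7.63 without WT LPS replicate 1) and 6.30 ± 0.249 in KO-labelled cells (78.9-fold, adjusted p = 4.88e-11).

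**Figure D1:**
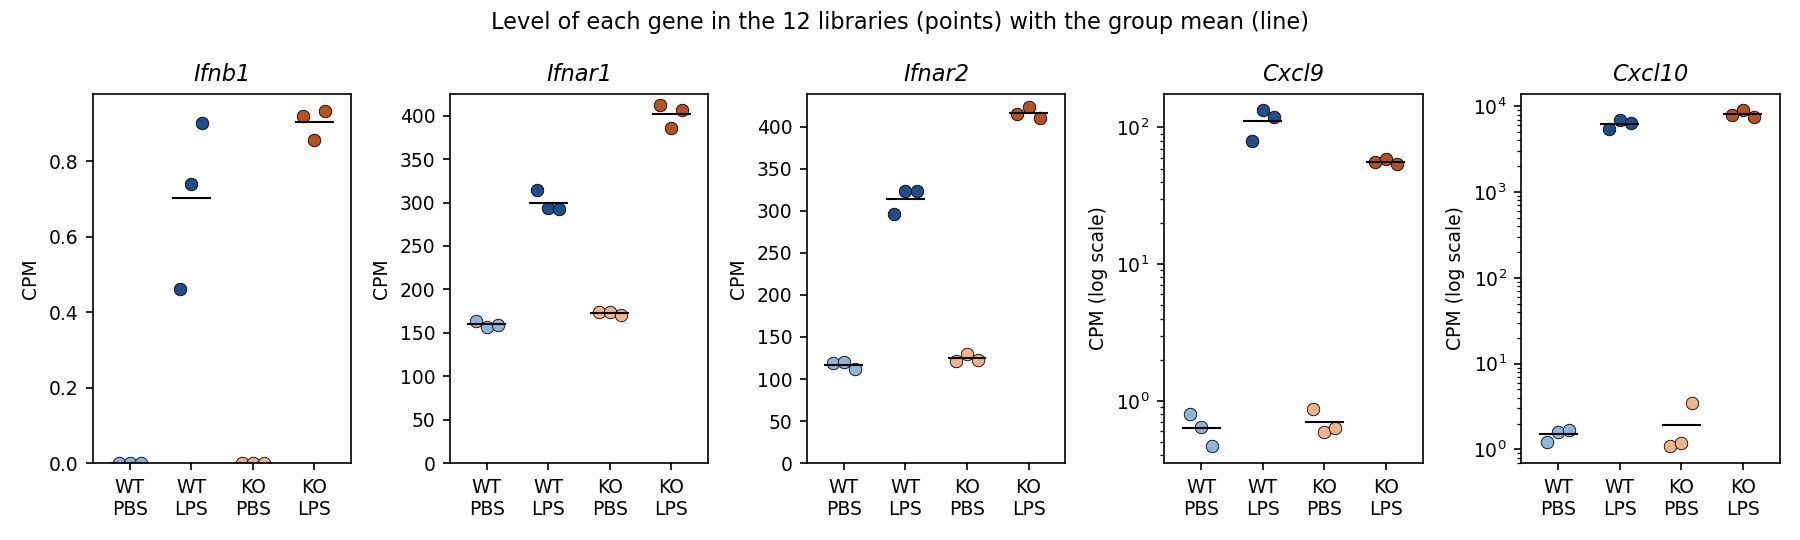
CPM of Ifnb1, Ifnar1, Ifnar2, Cxcl9 and Cxcl10 in each library (points, replicates 1 to 3 from left to right) of the 4 groups, with group means as lines, linear for the first 3 genes and on log axes for the chemokines. Ifnb1 sits at 0 in all PBS libraries, the KO-labelled LPS points lie above the WT LPS points for Ifnar1, Ifnar2 and Cxcl10, and they lie below them for Cxcl9.

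Levels of different genes were compared per kilobase of the longest annotated transcript, which may not be the one expressed. In WT LPS libraries the order was Cxcl10 (2791 ± 330 CPM per kb), Ifnar2 (103.2 ± 5.14), Ifnar1 (76.7 ± 3.17), Cxcl9 (38.3 ± 9.82) and Ifnb1 (0.936 ± 0.297), and no neighbours in that order overlapped. The same order held in KO-labelled LPS libraries, where Cxcl10 stood at 3653 ± 341, Ifnar2 at 136.8 ± 2.18, Ifnar1 at 102.7 ± 3.67, Cxcl9 at 19.4 ± 0.888 and Ifnb1 at 1.20 ± 0.0543 CPM per kb. Under PBS the receptor genes led instead. Ifnar1 stood at 40.9 ± 0.863 and Ifnar2 at 38.5 ± 1.37 CPM per kb in WT cells, against 44.2 ± 0.412 and 40.9 ± 1.55 in KO-labelled cells. Per length, Cxcl10 was at 0.676 ± 0.109 and Cxcl9 at 0.22 ± 0.0573 CPM per kb in WT PBS libraries, while in KO-labelled PBS libraries they were at 0.860 ± 0.604 and 0.243 ± 0.052. The libraries of neighbouring genes in this order did not overlap under PBS either.

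To examine the resting cells, KO-labelled PBS libraries were compared with WT PBS libraries. Ifnb1 had no counts there and could not be compared. None of the other 4 genes passed the adjusted threshold in edgeR, whereas 25.3% of all genes did (12.3% higher, 13.0% lower, or 16.5% and 10.3% with library totals alone). At an unadjusted p under 0.05, 1 of the 4 genes was counted (36.5% of all genes were), Ifnar1, which was also the 1 gene that DESeq2 called. Ifnar1 was at 159.8 ± 3.37 CPM in WT cells against 172.7 ± 1.61 CPM in KO-labelled ones, with no overlap, and the log2 difference of 0.11 had a 95% interval of 0.0013 to 0.22 (edgeR adjusted p = 0.132). Ifnar2 averaged 117.2 ± 4.18 and 124.7 ± 4.72 CPM, a difference of 0.09 with an interval of -0.03 to 0.21. The chemokines had few counts under PBS. The interval of the log2 difference ran from -0.92 to 1.22 for Cxcl9 and from -0.60 to 1.28 for Cxcl10. Without KO PBS replicate 3, the Cxcl10 difference turned from 0.34 to -0.38, neither past the threshold. That library had 98 counts of Cxcl10 against 31 and 34 in its group.

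The comparison of KO-labelled with WT cells after LPS separated these genes. Ifnar1 and Ifnar2 were higher in the KO-labelled cells, Cxcl9 was lower, and Cxcl10 and Ifnb1 did not pass the test. Of all genes, 41.4% passed in this comparison (22.1% higher, 19.3% lower, or 15.9% and 26.1% with library totals alone and 17.2% and 24.2% with upper-quartile scaling), and the median difference was 0.00059 on the log2 scale.

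Cxcl9 differed most. Its mean was 110.7 ± 28.4 CPM in WT libraries against 55.9 ± 2.56 CPM in KO-labelled ones, and the groups did not overlap. The log2 difference was -0.99 ± 0.15 (1.98-fold lower, edgeR adjusted p = 0.000226) and -1.18 without WT LPS replicate 1 (adjusted p = 1.34e-10). Cxcl10, which lies 18559 bases away on the same chromosome, went the other way in its values, from 6225 ± 736 CPM in WT to 8146 ± 759 CPM in KO-labelled cells. The groups did not overlap, but the log2 difference of 0.39 ± 0.192 missed the threshold (edgeR adjusted p = 0.137, 95% interval -0.04 to 0.82). It was past the threshold at 0.38 when KO PBS replicate 3 was left out of the fit (adjusted p = 0.00272) and at 0.37 in a fit to the LPS libraries alone (adjusted p = 0.0189), and without WT LPS replicate 1 it was 0.30 (adjusted p = 0.248).

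Both receptor subunits were higher by like amounts. Ifnar1 went from 299.9 ± 12.4 CPM in WT to 401.5 ± 14.3 CPM in KO-labelled LPS libraries, a log2 difference of 0.42 ± 0.0521 (edgeR adjusted p = 1.13e-05). Ifnar2 averaged 314.4 ± 15.7 and 416.8 ± 6.64 CPM, a difference of 0.41 ± 0.0552 (adjusted p = 2.78e-05). Without WT LPS replicate 1 these were 0.46 and 0.37, both past the threshold. Ifnb1 averaged 0.702 ± 0.222 and 0.903 ± 0.0407 CPM, and its groups overlapped. Its log2 difference of 0.36 ± 0.343 (edgeR adjusted p = 0.435) had a 95% interval of -0.39 to 1.11, which at 8 to 16 counts per library does not settle a direction, and it was 0.14 without WT LPS replicate 1.

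Whether the response to LPS itself differed was tested as the interaction of genotype label and treatment, which 18.0% of all genes passed (9.78% higher in KO-labelled cells, 8.26% lower, or 5.20% and 16.1% with library totals alone and 7.73% and 10.2% with upper-quartile scaling). For these genes, 2 of 4 passed, both receptor subunits. The response of Ifnar1 was larger in KO-labelled cells by 0.31 ± 0.0738 on the log2 scale (edgeR adjusted p = 0.00872) and that of Ifnar2 by 0.32 ± 0.0784 (adjusted p = 0.0105). The Ifnar2 value missed the threshold without WT PBS replicate 1 (0.28, adjusted p = 0.0517) and without KO PBS replicate 1 (0.27, adjusted p = 0.0534). Without WT LPS replicate 1 the differences were 0.34 for Ifnar1 and 0.28 for Ifnar2, and without KO PBS replicate 3 both were 0.28 (edgeR adjusted p = 0.0352 and 0.0476). Scaling by library totals alone gave 0.17 and 0.18, neither past the threshold. For Cxcl9 the difference in response was -1.13 ± 0.517 (edgeR adjusted p = 0.16), with an interval of -2.26 to -0.01. It passed without WT LPS replicate 1 (-1.33, adjusted p = 0.00142) and in DESeq2 (-1.15, adjusted p = 0.0103). Cxcl10 gave 0.05 ± 0.478 (edgeR adjusted p = 0.967, interval -1.02 to 1.11), against -0.04 without WT LPS replicate 1 and 0.76 without KO PBS replicate 3 (adjusted p = 0.0569), and Ifnb1 had no PBS counts for such a test.

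**Figure D2:**
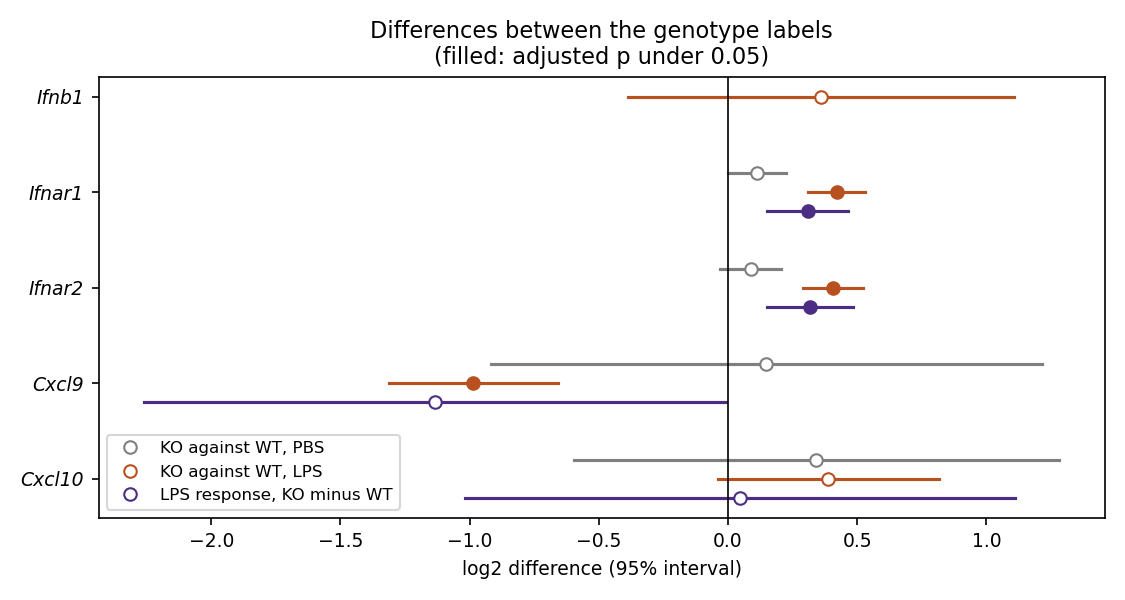
Log2 difference between KO-labelled and WT libraries with its 95% interval for Ifnb1, Ifnar1, Ifnar2, Cxcl9 and Cxcl10 under PBS and under LPS, and the difference in LPS response, with filled points past an adjusted p of 0.05. The receptor subunits lie right of 0 under LPS with narrow intervals, Cxcl9 lies left of 0, and the intervals of Ifnb1 and Cxcl10 cross 0.

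Ratios of deposited counts within a library do not depend on how libraries are scaled. The ratio of Cxcl10 to Cxcl9 counts was 68.7, 51.5 and 53.3 in the WT LPS replicates but lay between 139.6 and 153.0 in the KO-labelled LPS replicates. The means were 57.8 ± 9.46 and 145.5 ± 6.84, a 2.54-fold higher ratio in KO-labelled cells (exact permutation test, two-sided, p = 0.1, the smallest that 3 against 3 libraries can give). Under PBS the ratio was 2.58 ± 1.03 in WT and 2.94 ± 2.3 in KO-labelled cells, with overlapping values (exact p = 1.0). The balance of the receptor subunits moved with LPS. The ratio of Ifnar2 to Ifnar1 counts went from 0.734 ± 0.0325 to 1.05 ± 0.0934 in WT and from 0.722 ± 0.0256 to 1.04 ± 0.0527 in KO-labelled cells, without overlap between treatments (exact p = 0.1 each, again the smallest possible). Between the genotype labels the ratio overlapped under LPS, at 0.943 to 1.11 in WT and 1.01 to 1.10 in KO-labelled libraries (exact p = 0.8), and under PBS (exact p = 0.6).

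**Figure D3:**
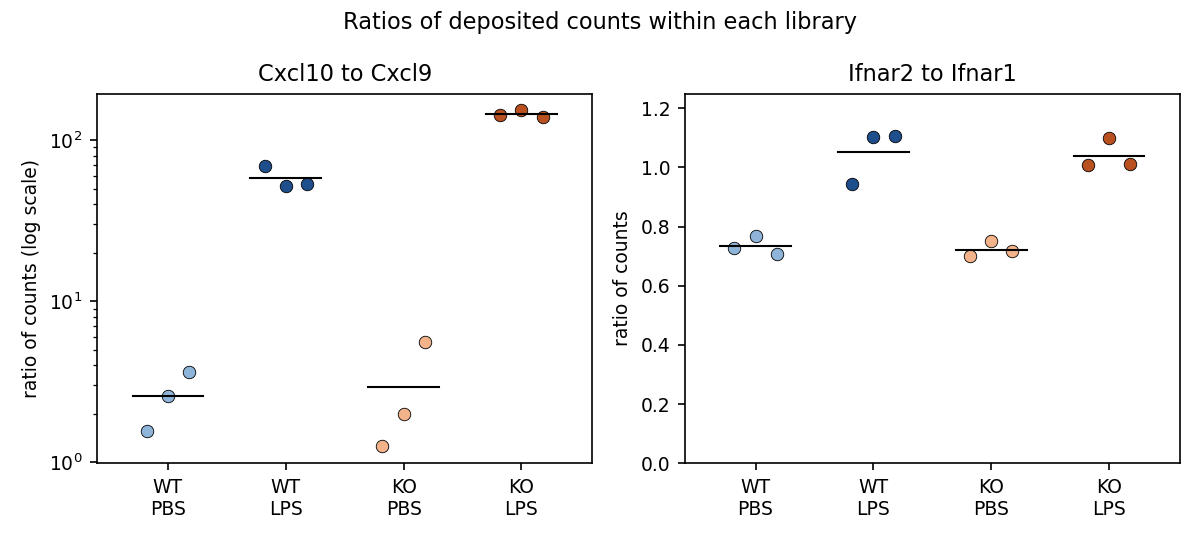
Ratio of deposited counts in each library (points) with group means (lines), for Cxcl10 to Cxcl9 on a log axis and Ifnar2 to Ifnar1 on a linear axis from 0. The Cxcl10 to Cxcl9 ratio is higher in every KO-labelled LPS library than in every WT LPS library, whereas the receptor ratio separates LPS from PBS and not the labels.

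The pathway around these genes was described by lists of its known parts. Upstream of Ifnb1, 15 genes of the route from LPS to the interferon gene were all tested. With LPS, 11 rose and 2 fell in WT cells, and 12 rose and 2 fell in KO-labelled cells, where 36.5% and 38.8% of all genes rose and 40.2% and 41.1% fell. With library totals alone, which lower all LPS changes, 7 rose and 6 fell in each label. Irf1 and Irf7, interferon regulatory factors, rose most in WT cells, by 4.44 ± 0.0737 and 4.43 ± 0.224 on the log2 scale (edgeR adjusted p = 5.79e-18 and 8.63e-09), and Tlr4, the LPS receptor itself, fell by 0.74. Between the labels, 1 of the 15 was higher and 3 were lower under PBS, counts that ranged from 0 to 4 and from 2 to 3 over the alternatives, against 12.3% of all genes higher and 13.0% lower. Under LPS, 6 were higher and 2 lower (4 and 4 with library totals alone), against 22.1% and 19.3% of all genes, so the lower count is near the background. Irf7, the factor that amplifies type I interferon production, stood at 112.2, 119.3 and 99.4 CPM in WT PBS and at 30.2, 41.2 and 62.1 CPM in KO-labelled PBS libraries. It was thus lower in resting KO-labelled cells, by 1.31 ± 0.205 on the log2 scale (edgeR adjusted p = 0.00113). Its response to LPS was larger there by 1.49 ± 0.281 (adjusted p = 0.00513). After LPS, Irf7 itself differed by 0.18 ± 0.193, which did not pass (adjusted p = 0.497), although the groups did not overlap. The larger response of Irf7 thus rests mainly on its lower PBS level. Without KO PBS replicate 3 the PBS difference of Irf7 was -1.60 and its difference in response 1.78, both past the threshold. The transcription factor genes Nfkb1 and Jun differed after LPS by 0.60 and -0.61 (adjusted p = 5.59e-05 and 1.89e-06).

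Below the receptor, Jak1, Tyk2, Stat2 and Irf9, 4 signalling genes, all rose with LPS in both labels, as did 36.5% of all genes in WT and 38.8% in KO-labelled cells. Stat2 stood at 33.3 ± 1.39 CPM in WT PBS and 544.4 ± 50.2 CPM in WT LPS libraries, and at 26.1 ± 2.15 and 558.6 ± 39.2 CPM in KO-labelled cells. It was lower in KO-labelled cells under PBS (-0.35, edgeR adjusted p = 0.00539), while the difference of 0.04 under LPS did not pass (adjusted p = 0.722). Of the 4, 1 was lower under PBS, 1 was higher and 1 lower under LPS, and 2 passed in the interaction, Irf9 at 0.44 (adjusted p = 0.0103) and Stat2 at 0.39 (adjusted p = 0.0236), both larger in KO-labelled cells. Of all genes, 25.3% passed under PBS, 41.4% under LPS and 18.0% in the interaction, so the counts under PBS and LPS are near the background. With library totals alone, 0 passed as larger and 1 as smaller, and the LPS difference of Irf9, 0.27 (adjusted p = 0.00777), came to 0.18 (adjusted p = 0.0515). The Stat2 interaction missed the threshold when any of WT PBS replicates 1 and 3, WT LPS replicate 3, KO PBS replicates 1 and 2 or KO LPS replicates 1 and 3 was left out, at 0.31 to 0.39. The lower gene under LPS, Tyk2 at -0.26 (adjusted p = 0.0322), did not pass when WT LPS replicate 1 (-0.14) or either of KO LPS replicates 1 (-0.29) and 2 (-0.18) was left out, nor with the GC correction or in a fit to the LPS libraries alone. Of the 6 brakes on interferon signalling, all rose with LPS in both labels (5 in WT and 4 in KO-labelled cells with library totals alone), against the same 36.5% and 38.8% of all genes, led in WT cells by Socs1 and Socs3 with 6.67 and 6.59 on the log2 scale. Between labels, 1 of the 6 was lower under PBS (0 when WT PBS replicate 1 or either of KO PBS replicates 1 and 2 was left out), near the 13.0% of all genes. Under LPS, 2 were higher and 2 lower, against 22.1% and 19.3% of all genes. The higher count was 1 without any one of WT LPS replicates 2 and 3 or KO LPS replicates 1 and 3, with upper-quartile scaling, with the GC correction and in a fit to the LPS libraries alone, since Pias1 (0.21, edgeR adjusted p = 0.0329) then missed the threshold. The lower ones were Ptpn6, a phosphatase gene, at -0.40 (edgeR adjusted p = 1.02e-05) and Socs1 at -0.23 (adjusted p = 0.0113), and the highest was Socs3 at 0.33 (adjusted p = 0.0114). The Socs1 difference missed the threshold without KO LPS replicate 3 (-0.17, adjusted p = 0.06) and was close to 0 with the GC correction (-0.0071, adjusted p = 0.947). With library totals alone, 0 were higher and 2 lower under LPS.

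Of 22 genes known to be induced by type I interferon, 20 were in the tables and tested. All 20 rose with LPS, against 36.5% of all genes in WT and 38.8% in KO-labelled cells, with a median log2 fold change of 6.33 in WT and 6.91 in KO-labelled cells. Among them, Ifi44 had at most 7 counts in any PBS library. It passed the filter on low counts only through its LPS libraries, so its rise is a description. Ifi205, which rose most, went from 1.57 ± 0.192 to 1365 ± 212 CPM in WT and from 1.39 ± 0.398 to 2098 ± 132 CPM in KO-labelled cells. Under PBS, 13 of the 20 were lower in KO-labelled cells and 0 higher, against 13.0% of all genes lower, and the median difference was -0.451. This count fell to 5 without WT PBS replicate 1 (7.77% of all genes lower in that fit), 7 without WT PBS replicate 2 (9.76%), 5 without KO PBS replicate 1 (7.52%), 4 without KO PBS replicate 2 (8.42%) and 6 in a fit to the PBS libraries alone (20.2%), while it was 14 without KO PBS replicate 3 (9.60%). The sum of fibroblast and mesothelial markers, though not Msln and Krt19, was lower in the same KO-labelled PBS libraries. It was 28.7 to 38.5 CPM against 62.2 to 75.5 CPM in WT, and the part of these cells in the lower targets was not tested. Ifit3, an antiviral protein gene, had 10.7, 9.91 and 8.51 CPM in WT PBS and 3.75, 3.69 and 6.63 CPM in KO-labelled PBS libraries, the highest of the latter being replicate 3. Its log2 difference was -1.05 ± 0.173 (edgeR adjusted p = 0.000664) and -1.36 without that library.

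After LPS, part of the list was higher in KO-labelled cells. Of the 20 targets, 10 were higher in KO-labelled cells and 0 lower, against 22.1% of all genes higher, with a median difference of 0.331. Of the 13 lower under PBS, 5 were among these 10. The count of targets higher after LPS was 7 with library totals alone (15.9% of all genes higher) and 8 with upper-quartile scaling (17.2%). It reached 13 without KO PBS replicate 3 (21.0%), and 0 were lower in each of these fits. Oas2, which makes the activator of RNase L, went from 140.8 ± 6.04 CPM in WT to 232.3 ± 13.3 CPM in KO-labelled cells, a log2 difference of 0.72 ± 0.0909 (edgeR adjusted p = 1.39e-05). Eif2ak2, which encodes the kinase PKR, differed by 0.64 ± 0.0725 (adjusted p = 4.99e-06). In the interaction, 16 of the 20 had a larger response in KO-labelled cells and 0 a smaller one, against 9.78% of all genes, with a median of 0.76, and 10 of them without KO PBS replicate 2 (6.04% of all genes larger in that fit). The summed level of the list per library was 473.5 to 544.5 CPM in WT PBS, 297.3 to 444.3 CPM in KO-labelled PBS, 42110 to 44360 CPM in WT LPS and 51390 to 52570 CPM in KO-labelled LPS libraries. The KO-labelled sums thus lay below all WT sums under PBS and above all of them under LPS.

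Of the genes that interferon-γ also induces, more were higher than lower in KO-labelled cells after LPS. Of 15 tested of 16, 14 rose with LPS in each label and 1 fell, Ciita, the master regulator of MHC class II. Of all genes, 36.5% rose and 40.2% fell in WT, and 38.8% and 41.1% in KO-labelled cells. Among the 14, Gbp4 and Iigp1 had at most 2.51 and 5 counts in any PBS library. They passed the filter on low counts only through their LPS libraries, so their rises are a description. Under PBS, 6 were lower and 0 higher in KO-labelled cells, against 13.0% and 12.3% of all genes, with a median of -0.185. Under LPS, 6 were higher and 1 lower, against 22.1% and 19.3% of all genes, so the lower count is not above the background. The median was 0.19, and 4 were higher with library totals alone. In the interaction 6 passed, all larger in KO-labelled cells, against 9.78% of all genes. The guanylate-binding protein gene Gbp7 was higher by 0.66 ± 0.0617 (edgeR adjusted p = 7.17e-07). The gene lower after LPS was Iigp1, an immunity-related GTPase, with 124.9, 177.8 and 149.1 CPM in WT LPS libraries against 102.3, 107.0 and 105.8 CPM in KO-labelled ones. Its groups did not overlap, and its log2 difference of -0.52 ± 0.0941 (adjusted p = 0.000383) had the sign of Cxcl9.

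**Figure D4:**
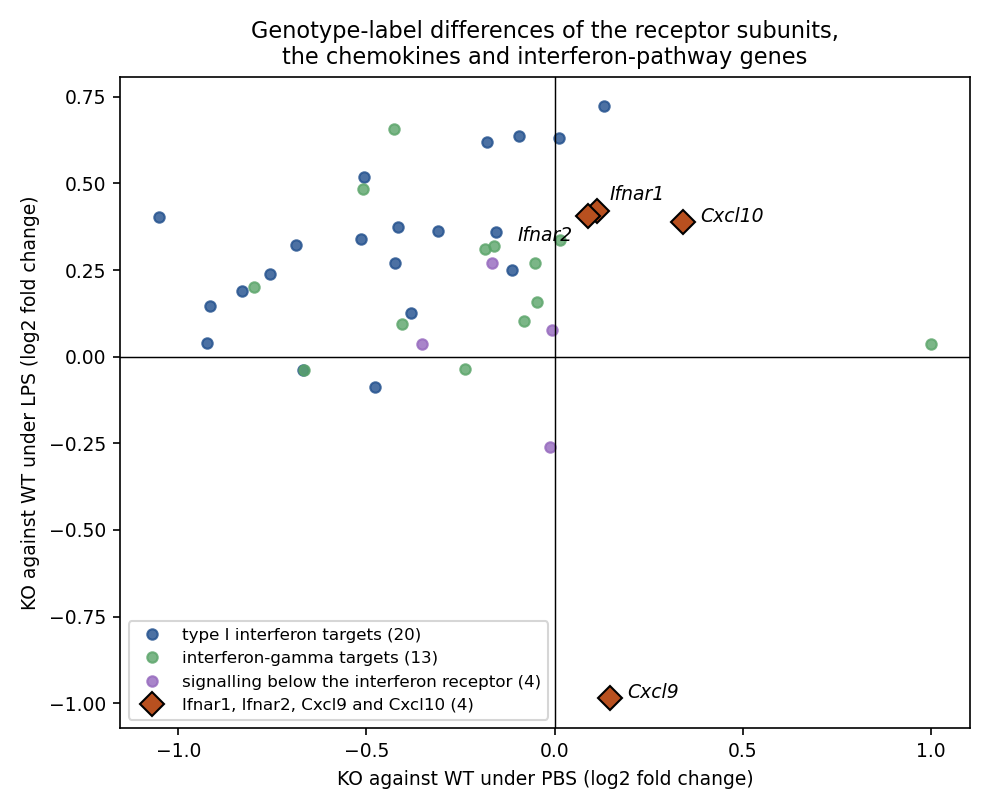
Log2 difference between KO-labelled and WT libraries under PBS (horizontal axis) and under LPS (vertical axis) for Ifnar1, Ifnar2, Cxcl9, Cxcl10 and 3 lists of interferon-pathway genes that were measurable in both. Most type I interferon targets lie left of 0 and above 0, Ifnar1, Ifnar2 and Cxcl10 lie right of 0 and above it, and Cxcl9 stands alone near -1 on the vertical axis.

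Other interferon ligands had few or no counts. Of 20 further ligand genes, 4 were in the tables and none passed the filter on low counts. Ifna4 reached 1 count, Ifna5 3 counts and Ifnz 4 counts at most in any library. Ifng, which encodes interferon-γ, had 0 counts in all PBS libraries, 3, 0 and 12 in the WT LPS replicates and 2, 1 and 0 in the KO-labelled LPS replicates. At this depth no difference in Ifng between the labels could be shown.

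A list of 7 genes held other receptors for these ligands and Dpp4, which encodes a peptidase. Of the 7, 5 were tested, Dpp4 among them. Cxcr3 itself had 51 to 60 counts in WT PBS and 87 to 115 counts in KO-labelled PBS libraries but only 1 to 4 counts in any LPS library. Every LPS library thus lay below every PBS library, and since the gene passed the filter on low counts only through its PBS libraries, this is given as a description. Under PBS it was higher in KO-labelled cells by 0.88 ± 0.161 on the log2 scale (edgeR adjusted p = 0.000909). The interferon-γ receptor subunits moved apart. Ifngr1 fell with LPS from 83.5 ± 1.2 to 18.2 ± 1.74 CPM in WT and from 114.5 ± 3.66 to 28.2 ± 2.74 CPM in KO-labelled cells, and was higher in KO-labelled cells under PBS (0.46, adjusted p = 0.000177) and LPS (0.63, adjusted p = 1.98e-05). Ifngr2 rose, as Ifnar1 and Ifnar2 did, by 1.15 in WT and 1.22 in KO-labelled cells, but its interaction of 0.07 did not pass (edgeR adjusted p = 0.58).

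Markers of other cells differed between the labels as well. The T and natural killer cell list, 7 of 8 genes in the tables, summed to 8.79 to 13.3 CPM in WT LPS libraries but to 3.98 to 4.59 CPM in the KO-labelled ones, against 0.465 to 0.805 CPM under PBS. Nearly all of the LPS sums was Lck, with 145 to 228 counts in WT and 59 to 69 counts in KO-labelled LPS libraries, while the defining markers Cd3e, Cd3g and Ncr1 had at most 1 count in any library. Of the others, Cd3d and Klrb1c reached at most 0.123 and 0.116 CPM. Cd2 was lower with LPS, unlike Lck, at 0.467 and 0.209 CPM on average in WT and 0.504 and 0.205 CPM in KO-labelled libraries. Mesothelial and fibroblast markers, all 8 in the tables, summed to 102.3 to 113.4 CPM in WT LPS libraries against 48.6 to 61.8 CPM in KO-labelled ones, and to 62.2 to 75.5 and 28.7 to 38.5 CPM under PBS. Most of that sum was Col1a1, Col1a2 and Dcn, fibroblast genes, and the mesothelial markers were mixed. After LPS, Wt1 averaged 2.83 CPM in WT against 1.03 CPM in KO-labelled libraries, Upk3b 1.12 against 0.946, Msln 1.26 against 1.52 and Krt19 0.495 against 0.473. Skeletal muscle markers, all 6 in the tables, summed to 30.0 to 34.8 CPM in WT LPS libraries and to less than 1 CPM in the KO-labelled ones. The fibroblast and mesothelial sum was lower in KO-labelled cells also under PBS, where the mean of Cxcl9 was 0.635 CPM (WT) against 0.703 CPM. The part of these cells in the lower Cxcl9 after LPS was not tested. Plasmacytoid dendritic cell markers, from cells that specialise in type I interferon, summed to 1.11 to 3.99 CPM over all libraries, B cell markers to 0.311 to 1.92 CPM and neutrophil markers to at most 16.0 CPM, in KO-labelled LPS replicate 1.

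The genes whose pattern over the 12 libraries was most like each of these were found by the root mean square difference in log2(CPM + 0.5) after centring each gene. For Cxcl10 they were Nos2 (0.307), which makes nitric oxide, and the cytokine genes Il1b (0.568) and Il12b (0.639). Nos2 went from 0.765 to 5849 CPM in WT and from 1.54 to 5998 CPM in KO-labelled cells, the nearest match to the rise of Cxcl10. For Ifnar1 they were Slc3a2 (0.0513), Efr3a (0.053) and Lats1 (0.0542), and for Ifnar2 Lgals8 (0.0646), Chic2 (0.0671) and Camk2d (0.0685). Cxcl9 was most like Tgtp1 (0.194), an interferon-inducible GTPase, Klrk1 (0.321) and Socs1 (0.331). Among the nearest to Ifnb1 were Cnep1r1 (0.075) and Psma2 (0.0863). With a pseudocount of 2, none of the nearest genes of Cxcl9 and Ifnb1 stayed the same, and so those matches depend on the scale chosen for rare mRNAs.

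Neighbouring genes within 100 kb were examined as well. Next to Cxcl9 and Cxcl10, Sdad1 rose by 1.29 in WT and 1.44 in KO-labelled cells on the log2 scale and Ppef2 by 3.58 and 3.42, against 7.44 and 6.30 for Cxcl9. Nup54, beyond Cxcl10, was higher in KO-labelled cells after LPS by 0.58 (edgeR adjusted p = 9.23e-06), and Sdad1 by 0.44 (adjusted p = 0.000104). The other 4 neighbours there, Ppef2, Naaa, Scarb2 and Art3, did not pass in that comparison, which 41.4% of all genes passed. Art3, whose span holds Cxcl10, rose as well but had at most 28 counts, and whether counting used strand is not given in the sources used here, so its reads and those of Cxcl10 cannot be told apart there. Il10rb, which starts 568 bases from the end of Ifnar2 and encodes a subunit of the interleukin-10 and interferon-λ receptors, was higher in KO-labelled cells after LPS by 0.40 ± 0.0502 (edgeR adjusted p = 1.29e-05), close to the 0.42 and 0.41 of its neighbours Ifnar1 and Ifnar2, whereas Ifngr2, 36536 bases beyond Ifnar1, differed by 0.10 (adjusted p = 0.147). Near Ifnb1, 4 interferon-α genes within 100 kb had no row in the tables and were not analysed here, and Hacd4 fell with LPS in both labels.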

How the data were processed

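RNA from 12 peritoneal macrophage libraries, 3 per group, was sequenced single-end on a BGISEQ-500. The authors deposited expected counts per gene (estimated counts that need not be whole), with no scaling between libraries. The submitters' processing notes name Bowtie2, RSEM 1.3.1 and GRCm38.p6, whereas the methods of the study name STAR and HTSeq, and between 24.6% and 26.9% of values carry decimals. The eliciting agent is starch broth in the series record and thioglycollate in the methods.

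Counts were rounded and tested in R 4.3.3 with edgeR 4.0.16 (limma 3.58.1). Genes were filtered with filterByExpr, which left 12064, and scaled with TMM, and all 12 libraries entered 1 robust quasi-likelihood model with 4 group means. Two-sided p-values were Benjamini-Hochberg adjusted over the whole table, and 0.05 was the threshold. CPM use the TMM-scaled library sizes. Depth limits precision: 3 counts, the floor used, equal 0.105 to 0.187 CPM, and this floor covers counting error only, whereas the 95% intervals come from the model and include the spread between libraries. Of 16920 gene numbers, 16803 matched the RefSeq table of GRCm38.p6, the source of positions and sequences, and transcript lengths came from GENCODE.

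The genes, the pathway lists and the markers were chosen with earlier results of these data known. The genes named were the 5 genes in the tables in every comparison, Ythdf1, the 3 nearest genes of each (mean of at least 5 CPM in the highest group), and of each list up to 2 each way with the largest change past the threshold, beside genes needed to say what a count holds. Neighbours were named after their values were seen. The text names only some of the genes that these rules give, and some genes are not reported here.

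Alternatives were RLE and upper-quartile scaling, library totals alone, no filter, at least 10 counts in every library, truncated counts, DESeq2 1.42.0, only the libraries compared, a replicate block, leaving out each library in turn, a pseudocount of 2 and, added after seeing the data, a GC correction. The fit was tested on simulated data.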

Additional observations from a re-analysis of the deposited data

Results flagged for a closer look

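The rise of both type I interferon receptor subunits with LPS differed between the genotype labels by a test of the difference itself. The log2 difference in response, KO-labelled minus WT, was 0.31 for Ifnar1 and 0.32 for Ifnar2, each from 3 libraries per group. Of all genes, 18.0% passed this test. Both calls were lost with library totals alone (0.17 and 0.18), and that of Ifnar2 without WT PBS replicate 1 or KO PBS replicate 1 (0.28 and 0.27).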

How the results depend on the processing

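Of 498 alternative values for 23 results on Ifnb1, Ifnar1, Ifnar2, Cxcl9 and Cxcl10, 474 kept their direction and their side of the threshold, and 15 of the 23 results did so throughout. These 15 include the LPS responses of Ifnar1, Ifnar2, Cxcl9 and Cxcl10 and the genotype differences of Ifnar1, Ifnar2 and Cxcl9 after LPS, and also the rises of Ifnb1, whose calls the filter fixed and which say nothing of stability. Ifnb1 could not be fitted where 10 counts were asked of every library. Under PBS, the genes that differed between the labels numbered 4627 in a fit to the PBS libraries alone, and leaving out each library in turn gave 1992 to 3896. The Ifnar1 difference under PBS passed with library totals alone (0.16), DESeq2 (0.13), the GC correction (0.17) and only the libraries compared (0.11). Leaving out each library in turn gave ranges of -0.032 to 0.37 for Cxcl9 and -0.38 to 0.65 for Cxcl10 under PBS. For Cxcl10 after LPS the range was 0.30 to 0.46, and only the libraries compared gave 0.37, past the threshold.

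The larger responses of Ifnar1 and Ifnar2 in KO-labelled cells fell to 0.17 and 0.18, no longer past the threshold, with library totals alone, a scaling that moved the median of all genes in that contrast by -0.138, and in the LPS contrasts by -0.663 in WT and -0.801 in KO-labelled cells. Upper-quartile scaling moved the latter by -0.31 and -0.356 and the GC correction by 0.13 and 0.117. Leaving out each library gave 0.27 to 0.35 for Ifnar2. For the Cxcl9 response, DESeq2 gave -1.15, past the threshold, and leaving out each library gave -1.36 to -0.95. The Cxcl10 interaction changed sign with upper-quartile scaling (-0.00037), library totals (-0.093) and the GC correction (-0.0039), and ranged from -0.27 to 0.76 when each library was left out. Ythdf1 after LPS ranged from -0.055 to 0.012 when each library was left out and was -0.12 with library totals. The cause of these changes was not tested.

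Replicate numbers were shared between groups, and the labels do not say whether they pair the samples. Correlations of deviations between same-numbered libraries lay between -0.192 and 0.201 over 18 pairs. Libraries were most like their own number in 16 of 36 cases. These values do not show pairing and, with 3 libraries per group, cannot exclude it. With the replicate block, the Ifnar1 and Ifnar2 interactions were 0.31 and 0.32, Cxcl9 after LPS was -0.96, and no call on these genes changed. Depth limits what can be said of Ifnb1 under LPS and of the chemokines under PBS.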
